A study of Sus scrofa with 6 samples.

Results

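The fibrillar collagen chains and the fibril-associated collagen COL14A1 were followed in the longissimus muscle of pigs (Sus scrofa) with high or low intramuscular fat. The members are the gene records that the deposited table names COL1A1, COL1A2, COL3A1, COL5A1, COL5A2, COL5A3, COL12A1 or COL14A1, and records that share a symbol were kept apart. The table held 10 such records of 7 genes among 7661 records in all, and COL12A1 is not analysed here. The design gives 3 pigs in the high group and 3 pigs in the low group, and 6 RNA-sequencing libraries carry these labels. The sources used here do not give the breed, sex, age, diet or kinship of the pigs. The p-values measure the spread between these libraries.

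Fibrillar collagens are secreted as procollagen chains that wind into triple helices, lose their end peptides and line up into the fibrils that give connective tissue its strength. Type I, made of COL1A1 and COL1A2 chains, and type III, made of COL3A1 chains, are the bulk fibrils of the sheaths around muscle fibres and bundles. Type V, with COL5A1, COL5A2 and sometimes COL5A3 chains, is a minor partner that starts fibrils and limits their width. COL14A1 forms type XIV, a collagen with interrupted triple helices that sits on the fibril surface. Fibroblasts and related stromal cells are the main makers of these chains in muscle, and the fat cells of marbled meat lie within the same sheaths.

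Library totals ran from 25371989 to 28874691 reads in the high group and from 30139025 to 34813172 reads in the low group. The members had between 241 and 53927 reads per library, a relative counting error of 0.431% to 6.44%. For COL5A3 in the low group the SD over libraries, 1.66% of the mean, was no larger than the counting error of its libraries, 1.79% to 1.92%. The 6 records found for muscle fibre markers summed to between 95367 and 100165 CPM (read count scaled to 1e+06 reads of the library total) in the high group and between 92291 and 97194 CPM in the low group. Long genes stood relatively higher in the high libraries. Spearman's rho of the gene's genomic span with its log2 CPM, centred on the record's own mean, was 0.230, 0.355 and 0.240 in high libraries 1 to 3 and -0.0644, -0.144 and -0.417 in low libraries 1 to 3.

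All 10 collagen records had a higher mean in the high group, by 1.29-fold to 2.79-fold. None of them passed the threshold of 0.05 in edgeR's quasi-likelihood test, adjusted over all 7661 records, which 0.144% of all records passed in either direction. Their adjusted p-values in that test lay between 0.104 and 0.316. An unadjusted p under 0.05 with a higher mean was found for 8 of the 10 records, against 10.3% of all records. In the lower direction it was found for 0 of the 10, against 8.41%. In 8 of the 10 every high library exceeded every low library in deposited CPM, which held for 10.4% of all records. The median log2 fold change was 0.96 over the 10 records and -0.04 over all records, where 45.2% of records had a value above 0.

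The choice of test decided how many records were called. The authors' deposited table gave 7 of the 10 records a false discovery rate under 0.05 and a higher value in the high group, against 3.25% of all records, and edgeR's exact test called the same number. DESeq2 also called 7 of 10, against 4.92% of all records it tested. Limma-voom called 0 of 10, against 0.0914% of all records in the higher direction, and the quasi-likelihood test at a threshold of 0.1 called 0 of 10, against 0.901%. The authors' deposited list of genes, which adds a log2 fold change limit of 1 in either direction, held 4 of the 10 records, against 1.38% of all records for the higher direction. These 4 were COL14A1 and 1 record each of COL1A1, COL1A2 and COL5A1. COL5A2 was just outside it, since its log2 fold change in the authors' deposited table was 0.999 with a false discovery rate of 0.00613.

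**Figure D1:**
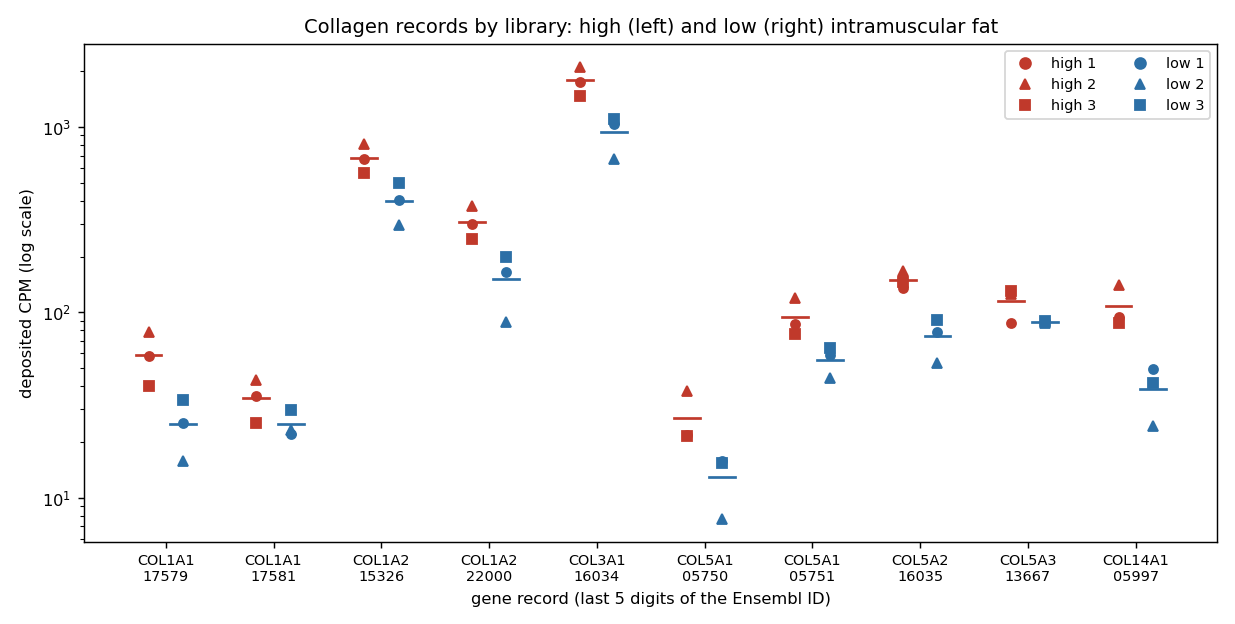
Deposited CPM (log axis) of the 10 collagen records in each library, with high libraries left and low libraries right of each tick, marker shapes for library numbers and bars for group means. High library 2 was highest in 9 of the 10 records and low library 2 was lowest in 9 of the 10.

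The collagen records together took 0.323%, 0.401% and 0.281% of the reads of high libraries 1 to 3. They took 0.195%, 0.131% and 0.217% of the reads of low libraries 1 to 3. The sums may count shared reads of records of one gene more than once. In bulk muscle, more cells that make collagen and more collagen RNA per cell cannot be told apart. Levels are not compared between genes, because the sources used here hold no exon lengths.

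COL1A2, the second chain of type I collagen, has a record on chromosome 9 (ENSSSCG00000015326, 81357192 to 81393120, plus strand) and one on an unplaced scaffold (ENSSSCG00000022000, positions 29023 to 58765). The chromosome 9 record stood at 668, 807 and 561 CPM in high libraries 1 to 3, against 402, 296 and 498 CPM in low libraries 1 to 3. The groups did not overlap, but high library 3 and low library 3 lay close. Its means were 679 ± 123 CPM in the high group and 399 ± 101 CPM in the low group (SD, n = 3 each), a log2 fold change of 0.76 (SE 0.25, quasi-likelihood adjusted p = 0.189).

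The scaffold record of COL1A2 stood at 298, 374 and 250.1 CPM in high libraries 1 to 3, against 166, 88.4 and 200 CPM in low libraries 1 to 3. Again every high library was above every low library, with low library 2 far below the other low libraries. This gave a log2 fold change of 1.01 (SE 0.33, quasi-likelihood adjusted p = 0.182). The scaffold record had 0.446, 0.464 and 0.446 reads per read of the chromosome 9 record in high libraries 1 to 3. In low libraries 1 to 3 it had 0.412, 0.299 and 0.401. The 2 records carry one symbol, while the RefSeq annotation of Sscrofa11.1 holds 1 COL1A2 gene, so reads can be shared or split between them.

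COL1A1, the first chain of type I collagen, is in pieces in the deposited table. One record lies on an unplaced scaffold (ENSSSCG00000017579, positions 15139 to 19536, minus strand, a span of 4398 bases). The other is a record of 526 bases on chromosome 12 (ENSSSCG00000017581, 26469602 to 26470127, minus strand). The RefSeq annotation of Sscrofa11.1, used for names and gene order alone, holds 1 COL1A1 gene, next to SGCA.

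The scaffold record of COL1A1 stood at 58.1, 78.3 and 40.0 CPM in high libraries 1 to 3, against 25.3, 15.9 and 33.9 CPM in low libraries 1 to 3. The groups did not overlap, and high library 3 was closest to the low group. Its log2 fold change was 1.22 (SE 0.35, quasi-likelihood adjusted p = 0.155), the second largest of the 10. The short chromosome 12 record stood at 35.3, 43.2 and 25.2 CPM in high libraries 1 to 3, against 22.0, 23.3 and 29.8 CPM in low libraries 1 to 3. Here the groups overlapped, since high library 3 was below low library 3. The log2 fold change of the short record was 0.47 (SE 0.23, quasi-likelihood adjusted p = 0.316).

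The 2 COL1A1 records therefore differed in how the libraries were ordered. The scaffold record had 1.65, 1.81 and 1.58 reads per read of the short record in high libraries 1 to 3. In low libraries 1 to 3 it had 1.15, 0.681 and 1.14, below every high library. With the records of each symbol summed before the fit, COL1A1 had a log2 fold change of 0.91 and COL1A2 of 0.85.

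Within 100 kb of the 2 COL1A1 records lie 5 records on the minus strand that carry no symbol, 2 on the same scaffold and 3 on chromosome 12 near SGCA. They were looked at after their values were seen, and the files give them no gene name. Of these, ENSSSCG00000021943 spans 545 bases on the scaffold. It had between 0.924 and 1.10 reads per read of the short COL1A1 record in every library, and a log2 fold change of 0.57 (SE 0.24). The other 4 span 1812 to 3460 bases and had log2 fold changes of 0.99 to 1.34, near that of the scaffold record of COL1A1. Thus 2 records of about the same length, 526 and 545 bases, showed the small difference, and the 5 longer ones showed the larger. The 2 short records had nearly equal reads, so they may share reads and may not be separate observations. With the span trend removed they had 0.62 and 0.72, and the 5 longer ones 1.18 to 1.53. In ENSSSCG00000027593, 1 of the longer ones, the groups overlapped, at 13.2 CPM in high library 3 and 13.4 CPM in low library 3.

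**Figure D2:**
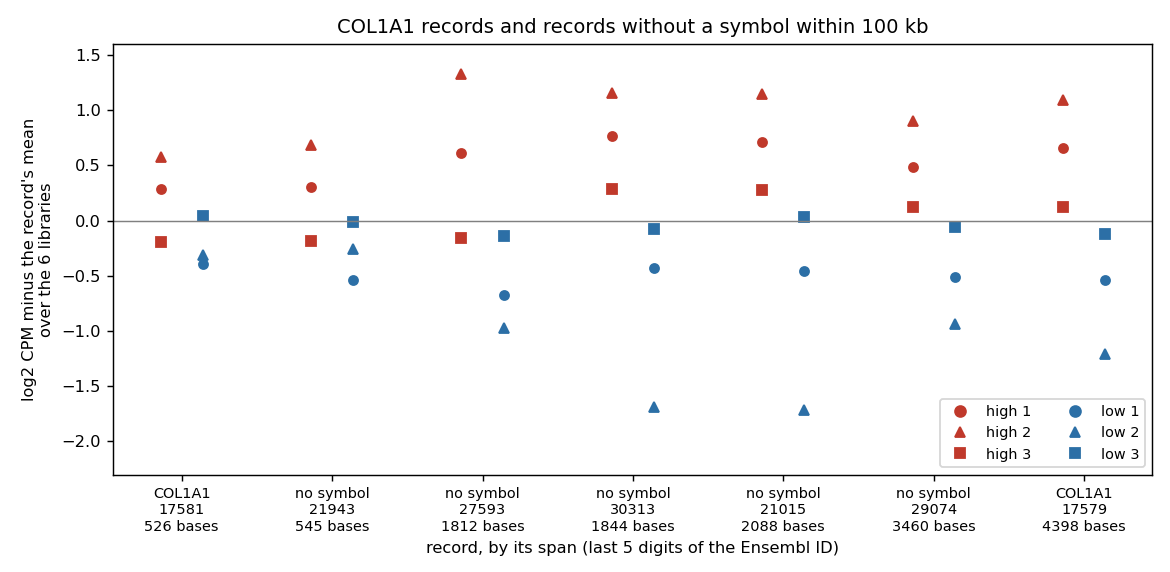
Log2 CPM minus each record's mean over the 6 libraries, for the 2 COL1A1 records and the 5 records without a symbol within 100 kb, ordered by span; high libraries are left and low libraries right of each tick. Low library 2 is the lowest library in the 5 records of 1812 bases or more, and in neither record of 526 or 545 bases.

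COL3A1, the single chain of type III collagen (ENSSSCG00000016034, chromosome 15, 104067018 to 104105776, plus strand), had the most reads of the members. It stood at 1749, 2114 and 1474 CPM in high libraries 1 to 3, against 1039, 673 and 1110 CPM in low libraries 1 to 3. All high libraries were above all low libraries. COL3A1 had a log2 fold change of 0.92 (SE 0.26, quasi-likelihood adjusted p = 0.152), a 1.89-fold higher level in the high group. Its false discovery rate in the authors' deposited table was 0.0211. COL3A1 was thus called there but missed the list for its fold change.

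COL5A2, which pairs with COL5A1 in type V collagen, lies 17105 bases from COL3A1 on the other strand (ENSSSCG00000016035, chromosome 15, 104122882 to 104175081). It stood at 135, 166 and 145 CPM in high libraries 1 to 3, against 77.9, 53.4 and 91.4 CPM in low libraries 1 to 3. COL5A2 had the smallest relative spread of the members within the high group, with an SD of 10.8% of the mean, and a clear gap between the groups. Its means were 149 ± 16.0 CPM in the high group and 74.2 ± 19.3 CPM in the low group (SD, n = 3 each). The log2 fold change was 0.999 (SE 0.23, quasi-likelihood adjusted p = 0.114), the second lowest adjusted p of the 10.

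COL5A1 has 2 records on chromosome 1 that lie 212534 bases apart on opposite strands. The RefSeq annotation of Sscrofa11.1 holds 1 COL5A1 gene, so whether both records belong to it is not settled here. The record ENSSSCG00000005751 (308064163 to 308174334, plus strand) stood at 86.4, 120.1 and 76.3 CPM in high libraries 1 to 3, against 58.9, 44.1 and 63.9 CPM in low libraries 1 to 3. The log2 fold change was 0.76 (SE 0.23, quasi-likelihood adjusted p = 0.164), with no overlap of the groups. The record ENSSSCG00000005750 (307780257 to 307851628, minus strand) stood at 21.8, 37.7 and 21.4 CPM in high libraries 1 to 3, against 15.8, 7.68 and 15.5 CPM in low libraries 1 to 3. It did not overlap either, and its 2 extremes were high library 2 and low library 2. Its log2 fold change was 1.04 (SE 0.34, quasi-likelihood adjusted p = 0.188). With both records summed COL5A1 had 0.83.

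COL5A3, the third and rarer type V chain (ENSSSCG00000013667, chromosome 2, 69156853 to 69193845, minus strand), had the smallest difference. It stood at 88.1, 126 and 130.1 CPM in high libraries 1 to 3, against 89.9, 87.6 and 90.3 CPM in low libraries 1 to 3. High library 1 lay among the low libraries, which were nearly equal to each other. COL5A3 had a log2 fold change of 0.37 (SE 0.16, quasi-likelihood adjusted p = 0.274). COL5A3 was also the only member whose highest library was high library 3. Over the 6 libraries, Pearson's r of log2 CPM between pairs of members had a median of 0.957 over 45 pairs. The lowest value was 0.413, between COL5A3 and the short COL1A1 record, and COL5A3 had between 0.413 and 0.801 with the others. All pairs share the same libraries, so these values are a description.

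COL14A1 (ENSSSCG00000005997, chromosome 4, 19716443 to 19949617, minus strand) had the largest difference of the members. It stood at 94.2, 141 and 87.6 CPM in high libraries 1 to 3, against 49.3, 24.5 and 41.3 CPM in low libraries 1 to 3. The lowest high library was well above the highest low library. Its means were 108 ± 29.1 CPM in the high group and 38.4 ± 12.7 CPM in the low group (SD, n = 3 each). The log2 fold change was 1.48 (SE 0.30, quasi-likelihood adjusted p = 0.104), and it lay between 1.21 and 1.71 with any 1 library left out. In the authors' deposited table its false discovery rate was 7.22e-05.

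COL14A1 was also set against each other collagen record inside each library. The log2 ratio of COL14A1 to the other record was, on average, larger in the high group for all 9 other records. That direction follows from COL14A1 having the largest change of the members. In 7 of the 9 no high library overlapped a low library. These ratios share COL14A1 and the same libraries, and no share over other pairs of records is given. Against COL3A1 the log2 ratio was -4.06 ± 0.15 in the high group and -4.64 ± 0.21 in the low group (SD, n = 3 each), a difference of 0.57 (0.38 with the trend on gene span removed). Against the chromosome 9 record of COL1A2 it was -2.67 ± 0.15 in the high group and -3.40 ± 0.33 in the low group, a difference of 0.73. Both had p = 0.1 in the two-sided exact permutation test, the smallest p that 3 against 3 libraries allow, and p = 0.15 adjusted over 15 pairs.

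The scaffold record of COL1A1 and COL5A2 were the exceptions. There the difference in log2 ratio was 0.27 (exact permutation p = 0.4) and 0.48 (exact permutation p = 0.2), and the groups overlapped. With the trend on gene span removed in each library, the difference from the COL1A1 record became -0.15. The difference from the scaffold record of COL1A2 went from 0.43 to 0.19 in that setting (exact permutation p = 0.3). COL14A1 has the longest span of the members, at 233175 bases.

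**Figure D3:**
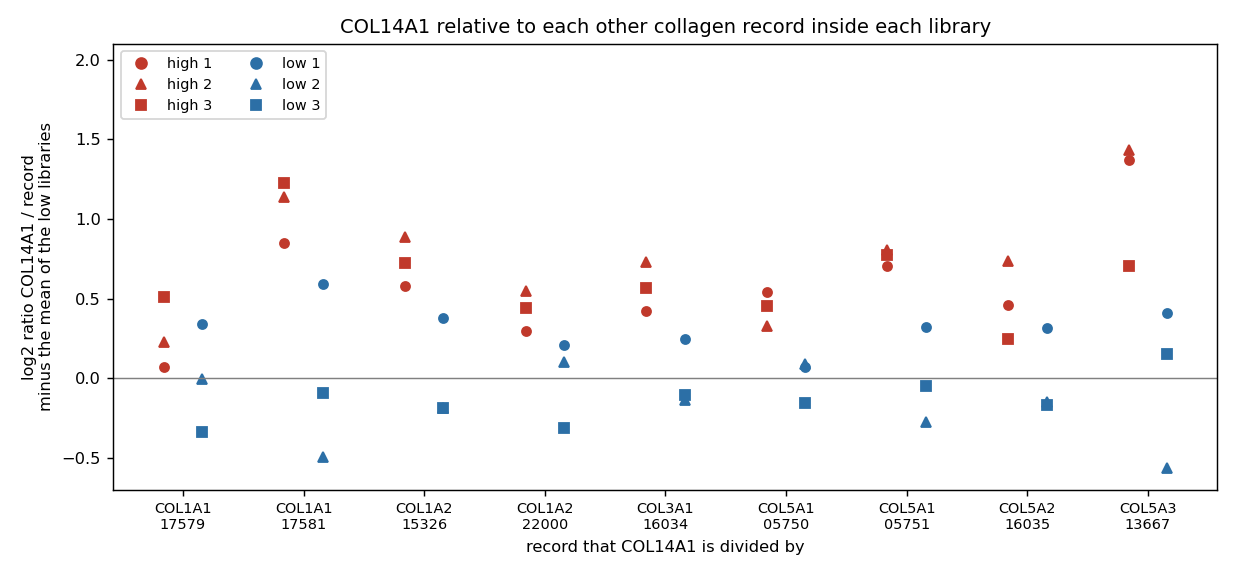
Log2 ratio of COL14A1 to each of the 9 other collagen records inside each library, minus the mean of the low libraries; high libraries are left and low libraries right of each tick. The high libraries lie above all low libraries except against the scaffold record of COL1A1 (leftmost) and against COL5A2.

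Chains of the same molecule were compared in the same way. For the scaffold record of COL1A1 the change exceeded that of the chromosome 9 record of COL1A2 by 0.46 (exact permutation p = 0.1, 0.15 adjusted over 15 pairs). Against the scaffold record of COL1A2 it exceeded it by 0.16, with overlapping groups (exact permutation p = 0.3, 0.346 adjusted). For the short COL1A1 record the difference was -0.34 from the chromosome 9 record of COL1A2 and -0.64 from its scaffold record (exact permutation p = 0.1 for both, 0.15 adjusted). Without low library 2 these were -0.19 and -0.34, and the first was -0.15 with the trend on gene span removed. With records summed per gene the difference of COL1A1 and COL1A2 was 0.01. The COL5A1 records differed from COL5A2 by 0.04 (ENSSSCG00000005750, exact permutation p = 0.9) and -0.28 (ENSSSCG00000005751, exact permutation p = 0.2), with overlapping groups. These small designs cannot show that paired chains changed alike.

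The size of the difference rested in part on high library 2 and low library 2, the extremes of 9 records each. Without both, a comparison chosen after seeing the data, the log2 fold change was 1.01 for COL14A1, 0.72 for COL5A2, 0.58 for COL3A1 and 0.44 for the chromosome 9 record of COL1A2. Then 3 of the 10 records had an unadjusted p under 0.05, against 8 with all libraries. The 8 records without overlap had to stay so, since leaving libraries out cannot make separate groups overlap. Without high library 2 alone, 5 of the 10 records had an unadjusted p under 0.05. The share of all records with such a p in these settings is not given here, so these counts lack a background.

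With the trend on gene span removed in each library, COL14A1 had 1.22, COL5A2 0.88, COL3A1 0.84 and the longer-spanning COL5A1 record 0.55. The scaffold record of COL1A1 had 1.40 and the short record 0.62 in that fit, both above their values without that step. The median of the 10 records was then 0.86, and that of all records -0.01. Across all 7661 records Spearman's rho of span with log2 fold change was 0.407. The part that the span trend has in the collagen differences was not tested.

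**Figure D4:**
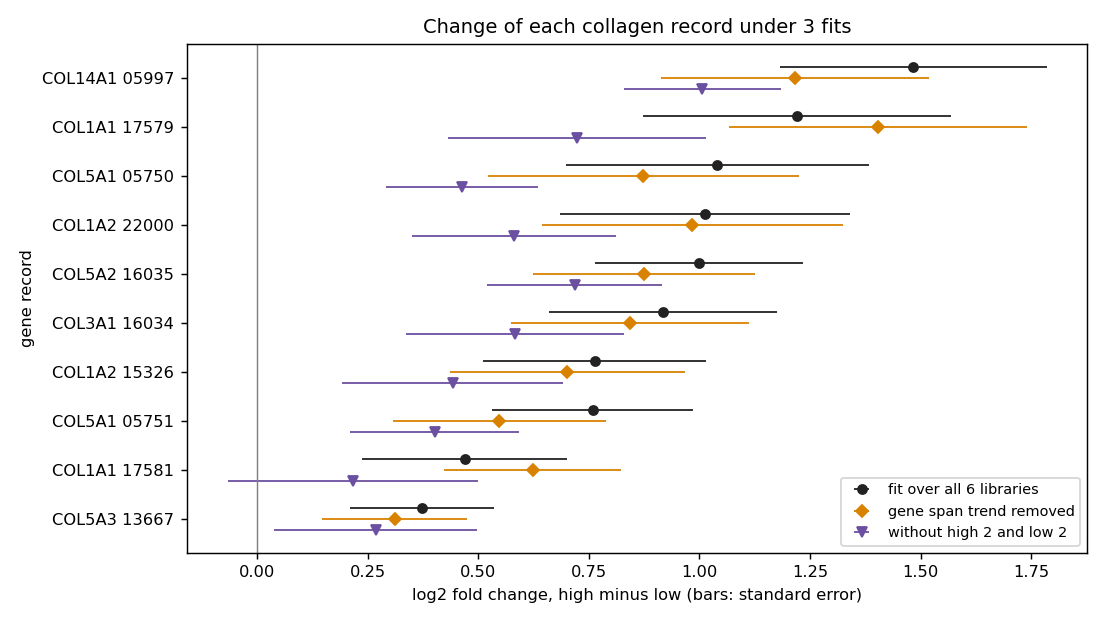
Log2 fold change (high minus low) of each collagen record with its standard error, from all 6 libraries, with the gene span trend removed, and without high library 2 and low library 2. Every point lies above 0, from 0.22 to 1.48, and COL14A1 or the scaffold record of COL1A1 (second from the top) is the largest in each fit.

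Genes that handle collagen were read from the same fit, by lists chosen with earlier results of these data known. The enzymes and chaperones that hydroxylate, fold and export procollagen had 14 records, 7 above 0 and 7 below, with a median log2 fold change of -0.01. None of the 14 passed the threshold. TMEM38B, an ion channel of the endoplasmic reticulum needed for collagen secretion in bone, had 0.74 (SE 0.21, quasi-likelihood adjusted p = 0.151). CTAGE5, part of the export site for procollagen, had 0.43 (SE 0.15) and the prolyl 3-hydroxylase LEPREL1 had 0.39 (SE 0.13). The collagen chaperone SERPINH1 had -0.18 (SE 0.24), and PPIB, the prolyl isomerase of the same compartment, had -0.42 (SE 0.16). With the span trend removed, TMEM38B had 0.63, CTAGE5 0.29, LEPREL1 0.14, SERPINH1 -0.0011 and PPIB -0.27. Genes of folding and export thus lay on both sides of 0.

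Procollagen cleavage and cross-linking was covered by 5 records, 3 above 0 and 2 below, none past the threshold. ADAMTS2, which removes the amino-terminal end peptide, stood at 32.2, 30.9 and 20.8 CPM in high libraries 1 to 3, against 17.2, 15.5 and 15.8 CPM in low libraries 1 to 3. Its log2 fold change was 0.81 (SE 0.19, quasi-likelihood adjusted p = 0.118). BMP1, which removes the carboxy-terminal one, had -0.73 (SE 0.21, quasi-likelihood adjusted p = 0.157), and every high library was below every low library. PCOLCE2, an enhancer of BMP1, had 0.50 (SE 0.25). With the span trend removed, ADAMTS2 had 0.54, BMP1 -0.81 and PCOLCE2 0.30.

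Among the 8 records of other collagen types, all were above 0, with a median of 0.60 and none past the threshold. COL28A1 had 0.67 (SE 0.18) and the 2 records of COL15A1, a basement membrane collagen, had 0.67 (SE 0.20) and 0.74 (SE 0.24). With the span trend removed, COL28A1 had 0.39 and the COL15A1 records 0.69 and 0.88. The further fibril-forming and fibril-associated chains were not alike. COL16A1 had 0.49 (SE 0.16), whereas COL19A1 had -0.18 (SE 0.20) and COL27A1 -0.07 (SE 0.14).

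Proteins that bind collagen fibrils had 18 records. All 18 were above 0, with a median of 0.73, and 12 had an unadjusted p under 0.05, against 10.3% of all records. The 18 records come from 16 genes, since TNXB and SPARC enter with 2 records each, all of them among the 12. Of the 18, PRELP is in the table through its high libraries alone. None passed the threshold. ASPN, a small leucine-rich protein of collagen fibrils, stood at 29.8, 31.4 and 28.0 CPM in high libraries 1 to 3, against 13.4, 14.1 and 15.5 CPM in low libraries 1 to 3. Its log2 fold change was 1.06 (SE 0.14, quasi-likelihood adjusted p = 0.0525), just outside the threshold. TNXB, the fibril linker tenascin-X, had 1.58 on its record ENSSSCG00000001429 (SE 0.32, quasi-likelihood adjusted p = 0.104). Its record ENSSSCG00000023611, with more reads, had 0.66 (SE 0.15, quasi-likelihood adjusted p = 0.113). Fibromodulin (FMOD) had 0.87 (SE 0.17, quasi-likelihood adjusted p = 0.103). Low library 2 was not the lowest library for ASPN, unlike for most collagen records.

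Of the collagen receptors 4 records were found, all above 0, none past the threshold. DDR2, the receptor tyrosine kinase that fibrillar collagen activates, stood at 12.9, 15.7 and 13.6 CPM in high libraries 1 to 3, against 6.92, 4.97 and 4.48 CPM in low libraries 1 to 3. Its log2 fold change was 1.38 (SE 0.20, quasi-likelihood adjusted p = 0.0657). All low libraries were under 10 CPM, so DDR2 is in the table through its high libraries alone, and a difference in that direction was built in. MRC2, which takes up collagen for breakdown, had 0.65 (SE 0.21), and the integrin chain ITGA1 had 0.23 (SE 0.12), or -0.02 with the span trend removed.

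Of 7 records for collagen breakdown and its inhibitors, 6 were above 0, with a median of 0.29 and none past the threshold. TIMP3, a matrix-bound inhibitor of metalloproteinases, had 1.14 (SE 0.21, quasi-likelihood adjusted p = 0.0910), the serine protease FAP 0.77 (SE 0.19) and the collagenase MMP14 0.40 (SE 0.18). The list for TGF-beta signalling, the best known inducer of collagen genes, had 15 records, 13 above 0, a median of 0.46 and none past the threshold. CTGF had 0.78 (SE 0.15, quasi-likelihood adjusted p = 0.0940). The receptor TGFBR1 had 0.75 (SE 0.15) and 0.79 (SE 0.19) on its 2 records. The 3 ligands were not alike: TGFB1 stood at 0.01 (SE 0.20), TGFB2 at -0.50 (SE 0.29) and TGFB3 at 0.46 (SE 0.26).

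**Figure D5:**
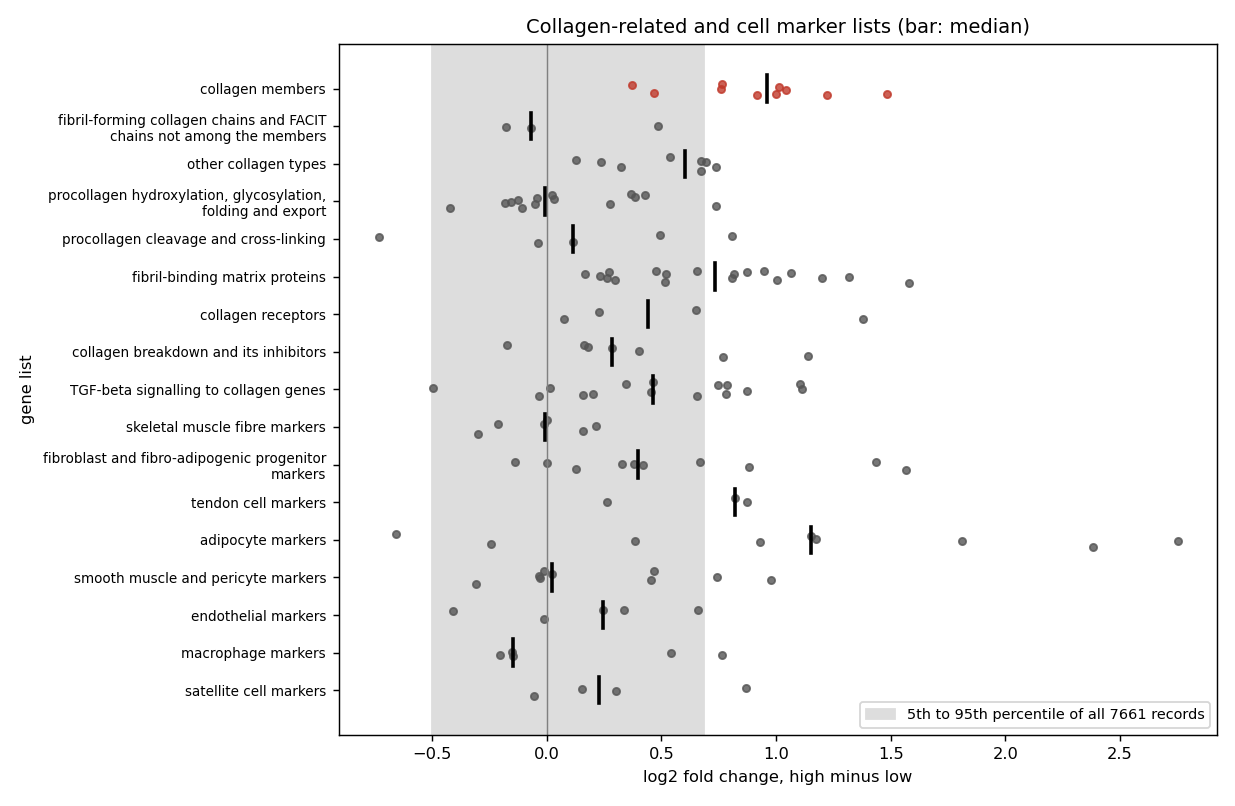
Log2 fold change (high minus low) of the collagen members (red) and of every record of the collagen-related and cell marker lists (grey), with list medians as bars and the range from the 5th to the 95th percentile of all 7661 records shaded. The median is 0.96 for the collagen members, 0.73 for fibril-binding proteins and -0.01 for procollagen folding and export.

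Markers of the cells that make collagen were read next. The fibroblast and fibro-adipogenic progenitor list had 10 records, 8 above 0, with a median of 0.40. It summed to between 428 and 591 CPM in the high group and between 305 and 356 CPM in the low group. Its median was 0.26 without low library 2 and 0.72 without low library 3. PDGFRA, the receptor that marks these progenitors, had 1.43 (ENSSSCG00000008841, SE 0.36) and 0.88 (ENSSSCG00000028873, SE 0.24) on its 2 records, and TCF7L2 had 0.67 (SE 0.16), none past the threshold. The related receptor PDGFRB had -0.00055 (SE 0.17) and -0.14 (SE 0.27) on its 2 records. With the span trend removed, TCF7L2 had 0.42, the PDGFRA record ENSSSCG00000008841 had 1.36 and the list median was 0.43. Tendon markers had 3 records, summing to between 216 and 259 CPM in the high group and between 133 and 168 CPM in the low group. Of these, CILP had 0.82 (SE 0.24). The others, FMOD and THBS4, are also counted among the fibril-binding proteins, and the tendon markers TNMD, SCX and MKX were not found. Every record of the table exceeded 10 CPM in at least 3 libraries. Of the 123 records of all lists, 6 were under 10 CPM in every low library and none in every high library, so these 6 are in the table through the high group and could not have been lower there. They were PRELP, DDR2, TCF7L2 and the adipocyte markers PLIN1, CIDE-C and CIDEA. Over all records, 0.927% were under 10 CPM in every low library and 0.64% in every high library, but none of the collagen records. The part of a changed share of these cells in the collagen differences was not tested.

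The summed fat cell markers had another order of libraries within the high group than most collagen records. The adipocyte list had 9 records, 7 above 0, with a median of 1.15. PLIN1, CIDE-C and CIDEA are among them and are in the table through the high group alone. The count and the median thus include records that could not have been lower there. The list summed to between 329 and 688 CPM in the high group and between 262 and 399 CPM in the low group. PLIN1, the coat protein of fat cell lipid droplets, rose by 2.75 on the log2 scale (SE 0.32, quasi-likelihood adjusted p = 0.0404). It stood at 27.2, 39.9 and 60.3 CPM in high libraries 1 to 3, against 8.13, 5.10 and 5.81 CPM in low libraries 1 to 3. With every low library under 10 CPM, its direction was fixed by the filter of the table. High library 3 was thus highest for PLIN1, while 7 of the 8 collagen records without overlap had high library 3 as the lowest high library. Among the collagen records with overlap, COL5A3 had the same order of high libraries as PLIN1. The short COL1A1 record had high library 3 as its lowest high library. The call of PLIN1 was lost without high library 2, low library 2 or low library 3 (quasi-likelihood adjusted p = 0.143, 0.170 and 0.0982). RETSAT had 1.81 (SE 0.29) and AOC3 0.93 (SE 0.18), neither past the threshold. The other direction was seen for AQP7 at -0.66 (SE 0.24), with every high library below every low library, and for CFD at -0.24 (SE 0.22).

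The other marker lists held records on both sides of 0, with none past the threshold. Smooth muscle and pericyte markers had 5 records above 0 and 4 below, with a median of 0.02. MYH11 of smooth muscle had 0.98 (SE 0.22) and RGS5 of pericytes 0.74 (SE 0.26), against -0.31 (SE 0.21) for CNN1, -0.03 (SE 0.16) for TAGLN, -0.01 (SE 0.16) for KCNJ8 and -0.03 (SE 0.28) for 1 of the 2 records of NOTCH3. Macrophage markers had 2 records above 0, MRC1 at 0.76 (SE 0.36) and CSF1R at 0.54 (SE 0.24). The 3 below 0 were C1QA at -0.15 (SE 0.41) and the records of C1QB at -0.15 (SE 0.43) and -0.20 (SE 0.43), and the median was -0.15. Endothelial markers had 3 records above 0 and 2 below, with a median of 0.25, among them VWF at 0.66 (SE 0.26) and KDR at -0.41 (SE 0.20). Satellite cell markers had a median of 0.23 over 4 records, with MYF5 at 0.87 (SE 0.17), NCAM1 at 0.30 (SE 0.13) and VCAM1 at -0.05 (SE 0.16). Muscle fibre markers had a median of -0.01 over 6 records, with MYH4 at 0.22 (SE 0.21) and DES at -0.30 (SE 0.29).

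These medians rest on few records and moved with single libraries. With each library left out in turn the macrophage median ran from -0.50 without low library 1 to 0.18 without low library 3. The endothelial median ran from 0.11 without low library 3 to 0.51 without low library 1, and the smooth muscle one from 0.04 without low library 3 to 0.30 without low library 1.

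Likeness to the collagens was measured as Pearson's r over the 6 libraries with the mean centred log2 CPM of the 7 genes, as a description. The 8 most alike records with a symbol had r between 0.986 and 0.996. They were ABI3BP, a collagen-binding matrix protein, COL28A1, ZNF385D, the laminin chain LAMC1, the microfibril protein FBN1, ADD3, INPP5F and 1 record of COL15A1. Among these 8, FBN1 had the largest log2 fold change at 1.57 (SE 0.40). For COL14A1 alone the 5 nearest were AP2B1, TIMP3, CD47, TEP1 and SYNCRIP, with r between 0.992 and 0.997. In all, 62 other records had an r above 0.95 with the collagen mean and 68 with COL14A1, which is 0.81% and 0.889% of the 7651 records that are no members.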

How the data were processed

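The authors deposited raw read counts per Ensembl gene record and library, and CPM, which equal the count per 1e+06 reads of a library total. Those totals served as library sizes. The submitters' processing notes name TopHat2 2.0.4, BWA 0.6.2, Trimmomatic 0.22 and FastQC 0.10.1. Which genome build, annotation, read counter and strand setting were used is not given in the sources used here. All coordinates come from the deposited table. The log2 fold changes the authors deposited run low over high and were turned around. Their p-values and false discovery rates are per the file headers. The exact test of edgeR with tagwise dispersions returned the same log2 fold changes to within 2.85e-08. It returned the same log10 p-values to within 0.000105.

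High was compared with low in edgeR 4.0.16 (R 4.3.3) with TMM factors (0.939 to 1.07), filterByExpr, which kept all 7661 records, and the quasi-likelihood F-test, with Benjamini-Hochberg adjustment over all records. The SE is the size of the log2 fold change over the root of F. Printed CPM are the deposited ones. Log2 CPM for ratios and correlations used TMM factors and a prior count of 2. The likeness profile weighted the 7 genes equally. Alternatives included DESeq2 1.42.0, limma-voom (limma 3.58.1) and a lowess trend on log10 gene span removed in each library.

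Members, lists and tests were chosen with earlier results of these data known. Of 213 list symbols, 117 were matched by name. In each list of collagen-related genes the text names the records past the threshold and the 3 others with the lowest unadjusted p, and in each marker list 2 others. SERPINH1, PPIB, TGFB1, PRELP, PDGFRB, AQP7, CFD, CNN1, TAGLN, KCNJ8, NOTCH3, C1QA, C1QB, VCAM1, CIDE-C and CIDEA were chosen after their values were seen. So were TGFB2, TGFB3, SPARC and the TNXB record ENSSSCG00000023611.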

Additional observations from a re-analysis of the deposited data

How the results depend on the processing

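Over all alternatives the 10 collagen records kept log2 fold changes above 0. The count of collagen records past the threshold, 0 as reported, became 7 in DESeq2 and 7 in edgeR's exact test, and stayed 0 in the other alternatives, including a threshold of 0.1 and each library left out. Over all records in the higher direction, 10 were called as reported, 377 in DESeq2, 249 in the exact test and 7 in limma-voom. The difference between COL14A1 and the scaffold record of COL1A1 turned to -0.15 with the span trend removed. The difference between COL5A1 (ENSSSCG00000005750) and COL5A2, 0.04, became -0.0025 with the span trend removed, -0.22 with records of a symbol summed, and ran from -0.15 to 0.16 with each library left out. Summing also turned the differences of the short COL1A1 record from both COL1A2 records to 0.013, since both COL1A1 records then enter as 1 gene. ITGA1 had -0.021 with the span trend removed and -0.093 without it and both libraries numbered 2. INPP5F had -0.047 in that last setting. With each library left out COL27A1 ran from -0.12 to 0.0099 and DES from -0.52 to 0.00092. The medians of the lists for folding and export (-0.11 to 0.11), cleavage and cross-linking (0.0037 to 0.29), further fibril-forming and fibril-associated chains (-0.094 to 0.0099) and muscle fibres (-0.064 to 0.14) also moved by over 1.5 times or crossed 0 with 1 library left out. PLIN1 lost its call with each of high library 2, low library 2 and low library 3 left out, without both libraries numbered 2, in limma-voom (adjusted p = 0.0529) and with the replicate block (adjusted p = 0.121).

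Whether library numbers pair the pigs is not given in the sources used here. Same-numbered deviations correlated at 0.118, 0.0312 and -0.0815, and 2 of 6 libraries correlated best with their own number, which does not settle it. With the replicate block 2 of all records were called, against 11 without it, and 0 collagen records in both. With 3 pigs per group an exact permutation test cannot go below p = 0.1. Setting aside both libraries numbered 2 was chosen after seeing the data.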
